A study of Rattus norvegicus with 3 samples.

Results

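Peaks of HA-tagged TET2 that lay across an annotated transcription start site numbered 2977 of 25521 in control rat aortic smooth muscle cells (SMC) and 2006 of 9523 in a line called Myocd-LSD1. A peak was taken as a member when the deposited annotation placed it in a promoter at a distance of 0 from the start site, so that the start lay within the peak. The rule uses position alone, and all members fell in the annotation class within 1 kb of a start. They were assigned to 2949 genes in Control and 1998 genes in Myocd-LSD1. The study asked where TET2 sits in the genome of both kinds of SMC. Control was 2 samples of SMC labelled WT, and Myocd-LSD1 was 1 sample of a line whose name joins myocardin, which activates smooth muscle genes with SRF, and LSD1, which removes methyl groups from lysine 4 of histone H3. All 3 samples, controls included, received an adenovirus carrying HA-TET2 for 24 h, so the tagged protein was overexpressed and the endogenous TET2 was not what the antibody to HA detected. Binding was mapped by CUT&Tag from 500000 cells per assay, in which a transposase tethered to the antibody cuts and tags the DNA beside the bound protein.

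Each group was represented by 1 deposited list of called peaks, so the values have no replicate error and conditions were not tested against each other. Shares carry exact binomial (Clopper-Pearson) intervals at 95% in parentheses, which reflect counting error alone. Depth was read from the peaks, since read totals were not used here. The lowest background under a peak, a measure of depth, was 2.77 times higher in Control (0.175 fragments) than in Myocd-LSD1 (0.0633). At the summits of start-site peaks the median number of fragments was 8 in Control (interquartile range 6 to 12) and 6 in Myocd-LSD1 (5 to 9). Summits of 3 fragments or fewer made up 3.33% of the Control start-site peaks and 10.3% of the Myocd-LSD1 ones. Peaks do not measure RNA, so the labelled cell type could not be checked by expression. Of all 14740 genes with a peak in either list, 20.0% had a Control start-site peak and 13.6% a Myocd-LSD1 one. Of the SMC contractile genes with any peak 9 of 23 had a Control start-site peak, and of other markers with any peak 0 of 12 endothelial, 0 of 6 neuronal, 0 of 5 skeletal or cardiac muscle, 0 of 1 hepatocyte and 1 of 5 macrophage and leukocyte genes (Cd14). These counts are too small to check the cell type.

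TET2 belongs to the dioxygenases that oxidise 5-methylcytosine, the first step by which methyl marks are removed from DNA. Many mammalian start sites lie in CpG islands, stretches rich in the dinucleotide CG that are mostly unmethylated and often carry trimethylated lysine 4 on histone H3. Unlike TET1 and TET3, TET2 lacks a CXXC domain, the module that binds unmethylated CG. LSD1 acts on the mono- and dimethylated forms of that lysine.

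Promoter sequences are given for genes of 3 kinds, to show what lies before these starts: a start-site peak in both lists, in Control with nothing on it in Myocd-LSD1, and in Myocd-LSD1 with nothing on it in Control. Kdm4b, Gatad2a, Olr1462, Copg1 and Rcan1 were taken by rank of fold among genes with a single listed start, and Dnmt1 and Acta2 from the DNA methylation and contractile lists. Each is the 250 bases before the start, from RefSeq on GRCr8, 5′ to 3′ on the gene's strand. Capitals mark matches, on either strand, to 9 short motifs given with the promoter results. Peak positions elsewhere in the text are on rn6 and cannot be set against these positions. Kdm4b (chr9:1245653-1245902, plus strand), which encodes a demethylase of histone H3 lysine 9, and Gatad2a (chr16:19463250-19463499, plus), which encodes a subunit of the NuRD complex, had the highest combined rank of fold enrichment in both lists. Dnmt1 (chr8:27762842-27763091, minus), the maintenance DNA methyltransferase, was the strongest of the DNA methylation genes in both lists. Olr1462 (chr10:44858909-44859158, minus), an olfactory receptor gene, and Acta2 (chr1:241172504-241172753, minus), smooth muscle α-actin, had a start-site peak in Control alone. Copg1 (chr4:121923712-121923961, plus), a subunit of the COPI vesicle coat, and Rcan1 (chr11:45118237-45118486, minus), a regulator of calcineurin, had one in Myocd-LSD1 alone.
Kdm4b: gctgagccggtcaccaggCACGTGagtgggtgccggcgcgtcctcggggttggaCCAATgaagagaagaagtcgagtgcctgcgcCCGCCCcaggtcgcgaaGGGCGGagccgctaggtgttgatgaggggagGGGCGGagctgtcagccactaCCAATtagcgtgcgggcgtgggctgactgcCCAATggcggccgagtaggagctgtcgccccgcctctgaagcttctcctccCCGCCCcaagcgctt
Gatad2a: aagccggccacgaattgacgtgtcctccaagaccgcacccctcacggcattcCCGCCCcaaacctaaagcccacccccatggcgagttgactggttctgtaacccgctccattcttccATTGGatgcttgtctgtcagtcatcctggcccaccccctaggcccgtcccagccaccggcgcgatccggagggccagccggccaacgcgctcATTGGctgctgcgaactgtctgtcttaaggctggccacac
Dnmt1: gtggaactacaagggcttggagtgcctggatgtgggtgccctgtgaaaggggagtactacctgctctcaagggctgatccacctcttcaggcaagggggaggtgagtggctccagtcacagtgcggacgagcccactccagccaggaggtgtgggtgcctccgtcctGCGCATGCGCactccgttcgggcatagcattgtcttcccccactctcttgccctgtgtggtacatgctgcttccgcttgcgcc
Olr1462: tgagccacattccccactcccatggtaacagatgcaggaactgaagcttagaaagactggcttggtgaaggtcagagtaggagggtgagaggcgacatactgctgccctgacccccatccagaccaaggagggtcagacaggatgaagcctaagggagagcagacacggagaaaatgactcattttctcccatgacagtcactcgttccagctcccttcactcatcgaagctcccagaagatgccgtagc
Acta2: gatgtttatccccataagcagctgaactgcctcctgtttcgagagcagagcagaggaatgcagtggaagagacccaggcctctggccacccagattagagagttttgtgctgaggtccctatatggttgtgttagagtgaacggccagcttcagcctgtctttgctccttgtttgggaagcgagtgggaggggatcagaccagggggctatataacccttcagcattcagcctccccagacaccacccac
Copg1: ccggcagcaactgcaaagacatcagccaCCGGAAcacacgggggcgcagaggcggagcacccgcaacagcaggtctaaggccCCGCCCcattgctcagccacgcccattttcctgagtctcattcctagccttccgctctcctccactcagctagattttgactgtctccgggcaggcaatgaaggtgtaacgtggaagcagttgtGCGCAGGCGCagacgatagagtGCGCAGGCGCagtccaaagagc
Rcan1: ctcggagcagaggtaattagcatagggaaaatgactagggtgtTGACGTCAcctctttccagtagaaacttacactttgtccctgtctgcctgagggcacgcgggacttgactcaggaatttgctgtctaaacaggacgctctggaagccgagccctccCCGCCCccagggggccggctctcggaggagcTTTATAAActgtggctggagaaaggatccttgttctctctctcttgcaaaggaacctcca
The Kdm4b stretch held 23 CG dinucleotides, with 4 matches to GGGCGG and 3 to CCAAT. Gatad2a held 17 CG, 1 match to GGGCGG and 2 to CCAAT. Copg1 held 16 CG and a pair of NRF1 motif matches, which begin 44 and 22 bases before the start. Olr1462 held 5 CG and Acta2 held 3, with no match to the 9 motifs in either window. Dnmt1 held 9 CG and 1 NRF1 motif match. Rcan1, also with 9 CG, held TATAAA on both strands in overlapping letters from 60 bases before the start, and TGACGTCA from 207 bases before it. CG-rich and CG-poor starts thus both occur among these 7 genes, and 1 gene says nothing of its group.

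Of all annotation classes, start-site peaks were the one in which both lists were most alike in size. Control had 1.48 times as many of them as Myocd-LSD1, against 3.0 times for all other peaks and 2.68 times for the whole lists. The trait was not theirs alone. Peaks within 1 kb of a start but not across it, counted among the others, numbered 2989 in Control and 1768 in Myocd-LSD1. That class too was closer in size than the whole lists. Start-site peaks made up 11.7% of the Control list (11.3 to 12.1) and 21.1% of the Myocd-LSD1 list (20.2 to 21.9). The ratio of background coverage, 2.77, lies near that of the whole lists, and depth and line cannot be told apart with 1 list per group.

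Most Control start-site peaks had a Myocd-LSD1 peak on them. A peak that shares at least 1 bp with a peak of the other list is called met. Of the Control start-site peaks 1718 were met (57.7%, 55.9 to 59.5), against 22.0% of all Control peaks and 17.3% of those not across a start (16.8 to 17.8). The other Control classes were all lower, with 31.3% met among the remaining peaks within 1 kb, 15.0% between 1 and 3 kb, 14.4% in introns, 8.52% in exons and 18.9% at distal intergenic sites. In the other direction 1519 Myocd-LSD1 start-site peaks were met (75.7%, 73.8 to 77.6), against 59.4% of all Myocd-LSD1 peaks and 55.0% of those not across a start (53.9 to 56.2). Outside start sites the Myocd-LSD1 classes ran from 46.2% in untranslated regions and gene ends to 63.2% within 1 kb.

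The partner of a start-site peak was mostly another start-site peak. Of the Control ones, 1340 (45%) met a Myocd-LSD1 start-site peak and 378 (12.7%) met only a peak beside the start. All 378 of these partners lay within 1 kb, 358 were assigned to the same gene, and their median distance from the start was 48 bp. The remaining 1259 (42.3%) were unmet. For 313 of the unmet (24.9%) the assigned gene had a Myocd-LSD1 peak somewhere, and for 74 (5.88%) a Myocd-LSD1 peak lay within 1 kb of the unmet peak. Of the 487 unmet Myocd-LSD1 peaks, 219 (45%) had a Control peak somewhere in the assigned gene and 73 (15.0%) had one within 1 kb. Counted by gene, 1281 had a start-site peak in both lists, which is 43.4% of the 2949 Control genes and 64.1% of the 1998 Myocd-LSD1 genes.

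Strength went with being met, and within each stratum of strength the Control start-site peaks were met more often than other Control peaks. The met Control start-site peaks had a median fold enrichment of 6.71, a median width of 440 bp and a median of 10 fragments. The unmet ones had 5.11, 332 bp and 7 fragments. When all Control peaks were split by fold into 4 groups of equal size, the start-site peaks were met in 30.7%, 42.2%, 55.1% and 80.3% from the lowest to the highest, and the other peaks in 5.96%, 10.7%, 18.0% and 36.8%. The same split by width gave 35.7%, 42.8%, 57.7% and 72.4% against 7.85%, 12.6%, 19.2% and 31.6%. With 3 fragments or fewer at the summit, 27.3% of 99 start-site peaks were met (18.8 to 37.1) and 3.09% of 1552 others (2.29 to 4.08). With 21 fragments or more, 85.6% of 208 start-site peaks (80.1 to 90.1) and 48.7% of 1651 others (46.3 to 51.1) were met. The intervals of start-site and other Control peaks did not overlap in any stratum of these 3 measures.

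In the Myocd-LSD1 list the separation depended on the measure. Over the 4 groups by fold its start-site peaks were met in 40.3%, 58.7%, 74.3% and 91.5%, and its other peaks in 19.6%, 50.1%, 73.9% and 91.3%, with overlapping intervals in the upper 2 groups. Over the 4 groups by width the shares were 55.6%, 63.7%, 69.6% and 88.5% against 36.8%, 46.5%, 62.9% and 84.3%, with no overlap of intervals. By fragments the shares were 40.8% and 19.8% at 3 or fewer, 63.4% and 59.5% at 4 to 5, and 81.0% and 79.1% at 6 to 8, with overlapping intervals from 4 fragments upward. All 46 start-site peaks with 21 fragments or more were met (lower bound 92.3%), as were all 139 others. With both lists held to a −log10 q-value of at least 5, the Myocd-LSD1 start-site share was 75.9% and that of the other peaks 79.2%, the reverse of the order over all peaks, with overlapping intervals (72.9 to 78.8 and 77.2 to 81.2). At a minimum of 3 the shares were 77.2% and 76.5%.

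**Figure D1:**
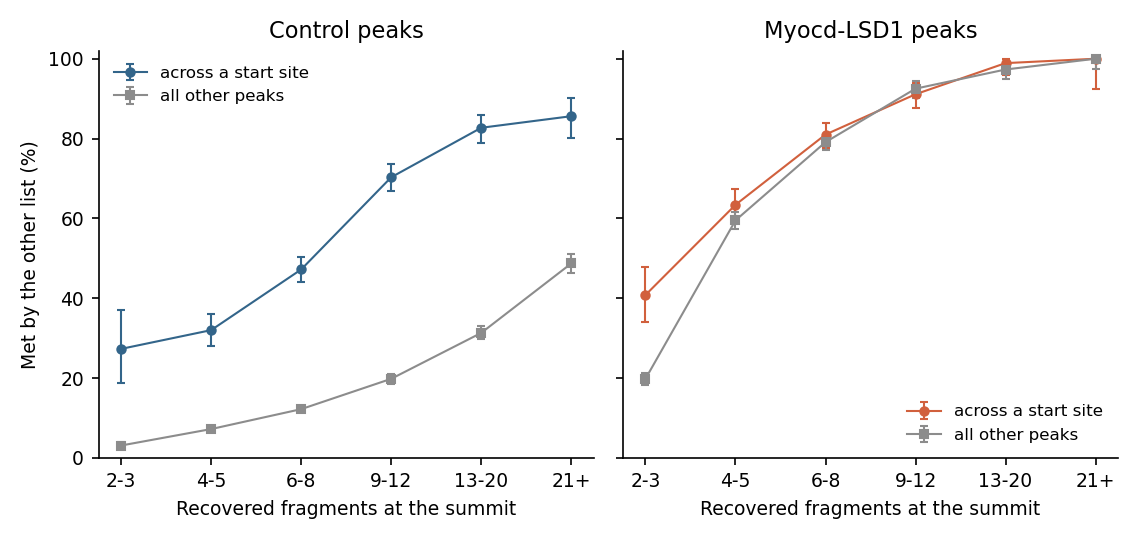
Share of peaks met by the other list (%, vertical axis) by the number of fragments recovered at the summit (horizontal axis), for start-site peaks and all other peaks of Control (left) and Myocd-LSD1 (right); bars are exact binomial 95% intervals. Control start-site peaks rise from 27.3% to 85.6% and lie above the other Control peaks in every bin, while both Myocd-LSD1 lines run together from 4 fragments upward.

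In Control the share met stepped down at the edge of the membership rule and fell further with distance, to 40.5% at 51 to 100 bp and 20.0% at 501 to 1000 bp. Control peaks that ended 1 to 50 bp from a start were met in 40.8% (36.9 to 44.9), against 57.7% for those across it, and their median fold and width were 5.11 and 279 bp against 5.9 and 395 bp. A wider peak is more likely to reach a start, so width differs by the construction of the rule. Upstream peaks were met more often than downstream ones, and their median fold was higher in all 5 distance bins of both lists. At 1 to 50 bp the median folds upstream and downstream were 5.41 and 5.04 in Control and 5.92 and 4.51 in Myocd-LSD1. At 51 to 100 bp of Control they were 6.05 and 4.55. At 501 to 1000 bp they were 5.18 and 5.08 in Control and 4.96 and 4.49 in Myocd-LSD1. The part of strength in the difference was not tested. Control peaks lying 1 to 50 bp upstream were met in 50.6% (44.3 to 56.9) and those 1 to 50 bp downstream in 33.3% (28.3 to 38.7). In the outermost bin, up to 1000 bp, the shares were 25.6% upstream (20.9 to 30.9) and 15.9% downstream (12.6 to 19.7). The upstream share was higher in all 5 distance bins of Control, and in all 5 of Myocd-LSD1, where it was 72.8% against 63.4% at 1 to 50 bp with overlapping intervals. Among the start-site peaks themselves, those with an upstream summit were met in 61.1% (58.5 to 63.7) and those with a downstream summit in 54.5% (52.0 to 57.0) of Control. The corresponding Myocd-LSD1 shares were 78.9% (76.3 to 81.4) and 72.3% (69.4 to 75.1).

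**Figure D2:**
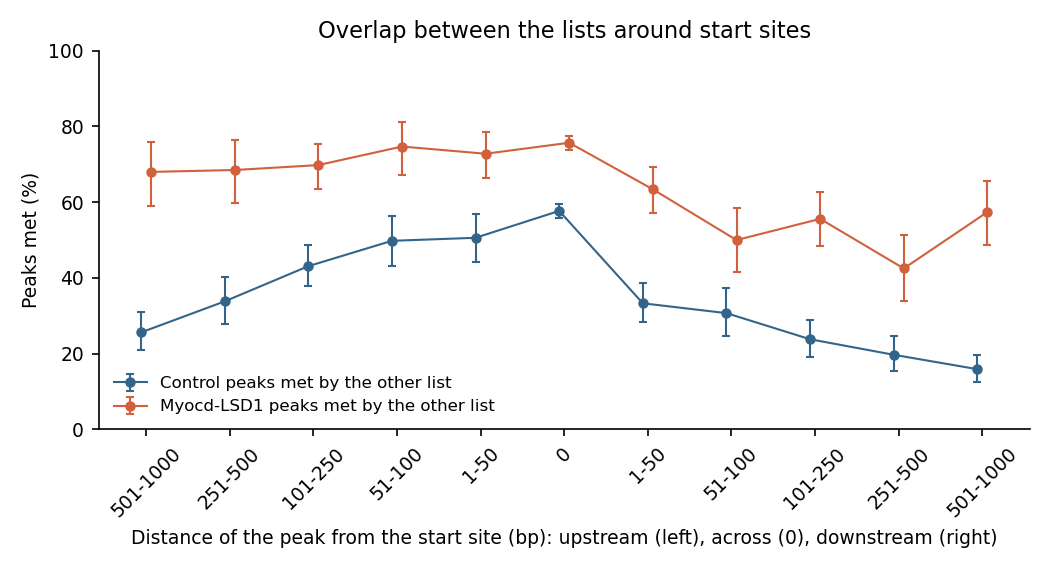
Share of peaks met by the other list (%, vertical axis) by distance of the peak from its start site in bp (horizontal axis, upstream on the left, 0 for peaks across the start, downstream on the right); points are Control and Myocd-LSD1 with exact binomial 95% intervals. Both lists are highest at 0 (57.7% and 75.7%), and the Control flank falls to 25.6% upstream and 15.9% downstream.

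The rule requires each peak to hold the start, so summits near it, and nearer in the narrower peaks, follow from the choice of members and are given as a description. The median summit lay 7 bp into the gene in Control (interquartile range −96 to 97) and 3 bp before the start in Myocd-LSD1 (position −3, −85 to 74). Within 100 bp of the start lay 51.8% of Control summits and 60.4% of Myocd-LSD1 summits. The Control peaks were wider, with a median of 395 bp (287 to 540) against 324 bp (241 to 442). They reached a median of 160 bp upstream and 216 bp downstream of the start, and the Myocd-LSD1 peaks 140 bp and 177 bp. In both lists start-site peaks were wider than the others, whose medians were 306 bp and 236 bp. Summits farther from the start belonged to peaks that were met more often. In Control 52.9% were met with a summit within 50 bp and 67.1% with one beyond 200 bp, and in Myocd-LSD1 69.8% and 90.3%. A peak with a distant summit must be wide to hold the start, and the part of width in this was not tested.

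**Figure D3:**
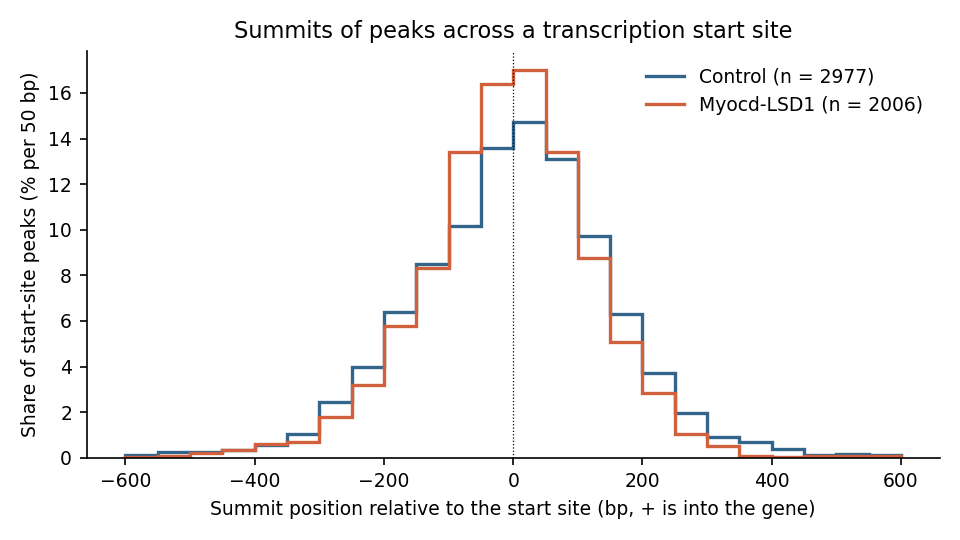
Summit position relative to the start site in bp (horizontal axis, positive into the gene) against the share of start-site peaks (% per 50 bp, vertical axis) for Control (n = 2977) and Myocd-LSD1 (n = 2006). The medians are 7 and −3 bp; peaks were chosen to hold the start and Myocd-LSD1 peaks are narrower, so the centring near 0 and the narrower Myocd-LSD1 outline follow from the rule.

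Pairs were chosen as overlapping peaks that both lie across a start, so close summits and a large shared length are in part set by that choice and by the widths, and are given as a description. Of the 1340 Control peaks paired with a Myocd-LSD1 start-site peak, 1266 were assigned to the same gene as their partner. The summits of a pair were a median of 82 bp apart (32 to 148), and 85.8% were within 200 bp. The Control peak was the wider in 944 pairs (70.4%), and in 555 (41.4%) it held the whole Myocd-LSD1 peak. A median of 94.8% of the Myocd-LSD1 peak lay inside the Control peak, and 73.9% of the Control peak inside the Myocd-LSD1 peak. Ranks of fold went together across pairs, with a Spearman rho of 0.54 over 1336 nuclear pairs. The rho is given as a description, because the peaks of a list share their source and its depth and are not replicates. Of the 526 pairs with a Control peak in the highest of 4 equal groups of Control start-site folds, 293 (55.7%) were in the highest group in Myocd-LSD1. Of the 450 pairs from the lower Control ranks, those under the median, 44 (9.78%) were.

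The starts under peaks were mostly CG-rich in either list. Promoter sequences of 300 bases, 250 before and 50 after the start, were found in RefSeq for 84.3% of the coding genes with a Control start-site peak and 85.8% of those with a Myocd-LSD1 one. The CpG ratio, the observed count of CG over that given by the C and G content, had a median of 0.81 in Control and 0.82 in Myocd-LSD1, against 0.55 over all 18999 coding promoters. It exceeded 0.6, a common mark of a CpG island, in 83.3% (81.7 to 84.8) and 85.9% (84.1 to 87.5), against 46.5% of all. Median GC content was 62.3% in both and 55.3% over all. Head-to-head promoters, with a start on the opposite strand up to 1000 bp upstream, made up 20.2% and 22.0%, against 11.1% of all.

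In Control, peaks at CG-rich starts were met more often than those at CG-poor starts of the same median fold. Control peaks at promoters above a CpG ratio of 0.6 were met in 61.2% of 1958 (59.0 to 63.4), and those at or under it in 46.6% of 393 (41.5 to 51.6). Their median folds were both 5.9 and their median widths 398 and 377 bp. Over the 4 groups by fold the shares were 33.2%, 46.1%, 59.8% and 82.7% for CG-rich promoters and 21.6%, 26.1%, 46.2% and 69.4% for the rest, with overlapping intervals in the lowest and the third group. Head-to-head promoters were met in 66.9% (62.5 to 71.2) and the others in 56.7% (54.4 to 58.9). Peaks at head-to-head promoters were also stronger and wider. Their median folds were 6.08 against 5.86 in Control and 5.94 against 5.74 in Myocd-LSD1. Their median widths were 408 against 392 bp and 352 against 318 bp. The part of strength and width in the head-to-head difference was not tested. In Myocd-LSD1 the CG-rich peaks were met in 76.7% (74.4 to 78.8) and the rest in 71.1% (64.8 to 76.9), which overlap, and the head-to-head ones in 81.9% (77.6 to 85.8) against 74.2% (71.7 to 76.5).

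**Figure D4:**
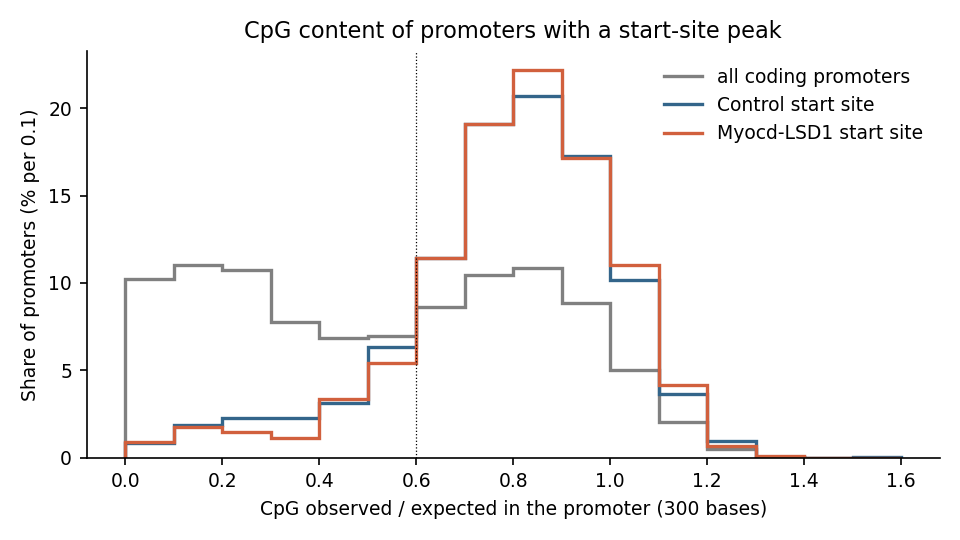
CpG ratio of the promoter (observed over that given by base content, 300 bases, horizontal axis) against the share of promoters (% per 0.1, vertical axis), for all coding promoters and for those with a start-site peak. All promoters spread over low and high ratios with a median of 0.55, while the promoters under start-site peaks gather around 0.8 (medians 0.81 and 0.82); the dotted line marks 0.6.

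Most of the motifs were more frequent in these promoters than in all coding promoters, and 1 was less frequent. Each motif was searched by its letters, the longest 3 being named only, on both strands of the 300 bases, and a match describes letters, not a bound site. GGGCGG, the core of the GC box read by SP1-type factors, was in 68.2% of promoters with a Control start-site peak, 71.7% with a Myocd-LSD1 one and 43.1% of all coding promoters. CCGGAA, the core read by ETS factors, was in 32.2%, 31.7% and 18.5%. The motif of NRF1 was in 15.0%, 16.2% and 6.08%. CCAAT, read by NF-Y, was in 44.8%, 46.5% and 38.4%, a smaller separation. TATAAA, the element read by TBP, was less frequent in promoters with a start-site peak, at 5.20%, 4.16% and 13.1%. Of the remaining motifs, all but CACGTG were rare in each group. The palindrome read by BANP was in 1.55%, 1.78% and 0.60%, the YY1 motif in 2.45%, 2.45% and 1.08%, TGACGTCA (CREB) in 3.48%, 3.98% and 2.23%, and CACGTG, the E-box, in 10.4%, 9.49% and 7.28%. Within the Control list GGGCGG was in 71.7% of met promoters (69.2 to 74.0) and 63.3% of unmet ones (60.2 to 66.4), and CCAAT in 47.0% (44.3 to 49.7) and 41.4% (38.3 to 44.6). TATAAA was in 5.10% and 5.30%, CCGGAA in 31.3% and 33.5% and CACGTG in 9.54% and 11.4%, each with overlapping intervals. In Myocd-LSD1 GGGCGG was in 71.3% of met (68.7 to 73.8) and 73.2% of unmet promoters (68.5 to 77.5), the other order, with overlapping intervals. The GC box, the ETS core and the NRF1 motif are made mostly of C and G, and their counts were not adjusted for the GC content given above.

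Provisional symbols were passed over in ranking the start-site peaks shared by both lists by fold. The 10 strongest of the rest were those of Kdm4b, Gatad2a, Ep400, Nfya, Hsph1, Cdca2, Alg14, Tsks, Gpr155 and Cyhr1. Kdm4b, whose promoter is printed above, had a Control peak at chr9:10734038-10734559 of fold 18.8 with 45 fragments and a Myocd-LSD1 peak at chr9:10734051-10734540 of fold 14.4 with 28. The Kdm4b peaks nearly coincide, and their summits lie 180 and 229 bp before the start. At Gatad2a the folds were 14.3 in Control and 16.3 in Myocd-LSD1, with 35 and 36 fragments and summits 94 and 97 bp before the start. Gatad2a and Cyhr1 were the 2 of the 10 with more fragments in Myocd-LSD1, the thinner list. Ep400, the ATPase of a histone-exchanging complex, had folds of 12.9 and 12.6. Nfya, a subunit of the CCAAT-binding factor NF-Y, had 12.9 and 12, with both summits 235 bp before the start. Hsph1, a chaperone of the Hsp110 family, had 12.7 and 13.5, Cdca2, a targeting subunit of protein phosphatase 1, had 14.2 in each, and Alg14, of the first steps of N-glycan assembly, had 13.1 and 12.5. Tsks, Gpr155 and Cyhr1 had Control folds of 14.2, 16.6 and 12 and Myocd-LSD1 folds of 14.3, 13.6 and 14.4. Over the 10 genes the Control peaks held 25 to 45 fragments and the Myocd-LSD1 peaks 18 to 36.

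The 10 unmet Control peaks of highest fold, passing over provisional symbols, held 17 to 51 fragments, against 25 to 45 for the 10 shared peaks named above. Both sets were picked by fold and do not give the range of their groups. Over all Control start-site peaks, met ones held a median of 10 fragments and up to 235. Unmet ones held a median of 7 and up to 51. Tmem217 (chr20:8202449-8203087) had a fold of 14.4 and Rgsl1 (chr13:71276171-71276853), an RGS-domain gene, 14.1, each with 51 fragments, more than any of the 10 shared peaks. Cldn4, a claudin of epithelial tight junctions, had a peak of 1116 bp with a fold of 12.6 and 42 fragments. Plec, the cytolinker plectin, had a fold of 12.6 and 38 fragments. Dclk1, a doublecortin-like kinase, had 11.2, Aptx, a DNA end-processing enzyme, 11, the olfactory receptor gene Olr1462 10.7, Sec1 10.5 and the small GTPase gene Rab43 10.4. Mir7578, a miRNA gene, had 13 with 26 fragments. These 10 were chosen as the unmet Control peaks of highest fold. That no Myocd-LSD1 peak touched them follows from that choice, and their high fragment counts do in part. Their 17 to 51 fragments lie above the Control median of 8 for start-site peaks. Their summits lay on both sides of the start, from position −470 against 1 start of Sec1 to 295 bp inside Rgsl1.

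Chosen in the same way, the 10 strongest unmet Myocd-LSD1 peaks were smaller. Copg1 (chr4:119814956-119815207) had a fold of 11.2 with 13 fragments and its summit 8 bp before the start, and Rcan1 (chr11:32620265-32620503) 9.47 with 12 fragments. Hexim1, the inhibitor of the elongation kinase P-TEFb, had 9.16, and Max, the dimerisation partner of MYC, had 8.77 with its summit 1 bp before the start. Thop1, a peptidase, had 9.24, Pnrc2, which links nuclear receptors and mRNA decay, 9.08, and Pex16, of peroxisome assembly, 9.02. Rab14, a small GTPase of endosomes, had 8.96, the kinesin gene Kif5b 8.08 and Dcps, the scavenger of decapped mRNA ends, 8.01. These peaks held 9 to 15 fragments and spanned 239 to 565 bp, against 17 to 51 fragments and 344 to 1116 bp for the unmet Control peaks. The lowest background was 2.77 times higher in Control, and the 10 were drawn from 487 unmet Myocd-LSD1 and 1259 unmet Control start-site peaks. Depth and line cannot be told apart in this difference. Outside the mitochondrial sequence, the widest start-site peaks without a provisional symbol were Kdm2a (1516 bp, unmet), Brcc3 (1397 bp) and Tmem185b (1334 bp, unmet) in Control, and Crlf2 (1059 bp), Cul4a (1006 bp) and Gspt1 (980 bp) in Myocd-LSD1. Kdm2a encodes a CXXC-domain demethylase of histone H3 lysine 36 that binds CpG islands, and its Control summit lay 1022 bp before the start.

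Of the contractile genes of SMC, 5 had a start-site peak in both lists and 4 in Control alone, 55.6% shared against the 43.4% of all genes with a Control start-site peak. Vcl (vinculin) had folds of 10.8 in Control and 8.47 in Myocd-LSD1, and Zyx (zyxin) 8.38 and 6.03; both proteins sit at focal adhesions. Cald1 (caldesmon) had 7.17 and 5.9, Pdlim5, an actin-associated PDZ-LIM protein, 6.08 and 7.78, and Ppp1r12b, a myosin phosphatase subunit, 4.13 and 4.54. The 4 in Control alone were all unmet. Des, the intermediate filament desmin, had a fold of 8.65 with 27 fragments, Jph2 (junctophilin) 5.47 with 14, Tpm1 (tropomyosin) 4.87 with 5 and Acta2 4.79 with 6. The Tpm1 and Acta2 peaks thus rest on few fragments, and those of Des and Jph2 on more. Of all Control start-site peaks, 32.0% with 4 to 5 fragments, as at Tpm1, and 47.2% with 6 to 8, as at Acta2, were met. With 13 to 20, as at Jph2, 82.7% were met, and with 21 or more, as at Des, 85.6%. Split by fold instead, 42.2% were met in the group of Tpm1 and Acta2. In the group of Jph2 55.1% were met, and in that of Des 80.3%. The part of strength in these 4 genes was not tested. With 9 genes the interval of the shared part runs from 21.2 to 86.3%, which holds the value of all genes.

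Among SMC transcription factors 4 of 21 had a Control start-site peak and none had a Myocd-LSD1 one, against 20.0% and 13.6% of all genes with a peak, so the Control count is near the background. Elk4, a partner of SRF, had a Control fold of 6.07, Mef2a, a MADS-box factor, 5.9, and Rbpj, the DNA-binding factor of Notch signalling, 5.38, all unmet. Smad3, which carries TGF-β signals, had 4.66 and was met by a Myocd-LSD1 peak just upstream of the start. A count of 0 of 4 allows a share of up to 60.2%.

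Genes that handle DNA methylation had 7 Control and 3 Myocd-LSD1 start-site peaks among 20 genes, against 20.0% and 13.6% of all genes with a peak, with 2 shared (28.6% of the Control genes, 3.67 to 71.0). Dnmt1 had folds of 14.3 and 7.46 with 34 and 10 fragments and summits 35 and 25 bp before the start. Tdg, the glycosylase that excises oxidised 5-methylcytosine, had 5.85 and 4.92. The readers Mbd3 (7.44, met by a peak beside the start) and Mbd2 (6.56), the dioxygenase gene Tet1 (5.69) and Gadd45a (5.44) had a Control start-site peak alone. Another list held 15 genes with a peak, which set or remove methyl groups at lysine 4 of histone H3, or work in those complexes. Of these, 3 had a Control start-site peak and 3 a Myocd-LSD1 one, against the same 20.0% and 13.6% of all genes. The 1 shared gene was Kdm1b, the paralog of LSD1, with folds of 10.1 and 11.1. It makes 33.3% of the Control genes (0.840 to 90.6), against 43.4% over all genes with a Control start-site peak. Ash2l (5.18), a core subunit of the methyltransferase complexes, and Smyd2 (4.73) had one in Control alone and were unmet. Hdac2 (5.99), a histone deacetylase, and Kdm1a (5.29), which encodes LSD1, had one in Myocd-LSD1 alone and were named after their values were seen. Of the Hox cluster genes with any peak, 14 in all, none had a Control start-site peak and 1 had a Myocd-LSD1 one, Hoxd9, named after its value was seen. The shares over all genes with a peak were those given above, 20.0% and 13.6%.

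The lists of general cell functions shared from 16.7% to 66.7% of their Control genes. The tRNA synthetases shared 8 of 12 (66.7%, 34.9 to 90.1), with Pars2 at folds of 8.86 and 4.48. Cell cycle genes shared 8 of 13 (61.5%, 31.6 to 86.1), among them the replication clamp Pcna (8.94 and 7.46), the helicase subunit Mcm4 (8.65 and 6.81) and Ccne2 (8.38 and 7.37). Ccna2 (10.1) and Cdkn1b (7.98) had a start-site peak in Control alone, yet both were met by a Myocd-LSD1 peak beside the start. Splicing factors and helicases shared 14 of 26 (53.8%, 33.4 to 73.4), with Hnrnpk (12.4 and 9.22) the strongest in Control, followed by Ddx54 (10.3 and 9.72). Mediator, polymerase and general factor genes shared 11 of 20 (55.0%, 31.5 to 76.9), and Zfp zinc finger genes 26 of 51 (36.6 to 65.2%). Mitochondrial ribosomal genes shared 5 of 10, complex I genes 2 of 6 and proteasome genes 4 of 13. The proteasome list, matched by symbol, also holds Psmc3ip, which is not a subunit. Cytosolic ribosomal genes shared 2 of 12 (16.7%, 2.09 to 48.4), Rps21 (10.3 and 6.48) and Rps16 (5.25 and 5.51), with a median Control fold of 5.06 against 5.9 for all Control start-site genes. The interval of each of these lists holds the 43.4% of all genes.

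**Figure D5:**
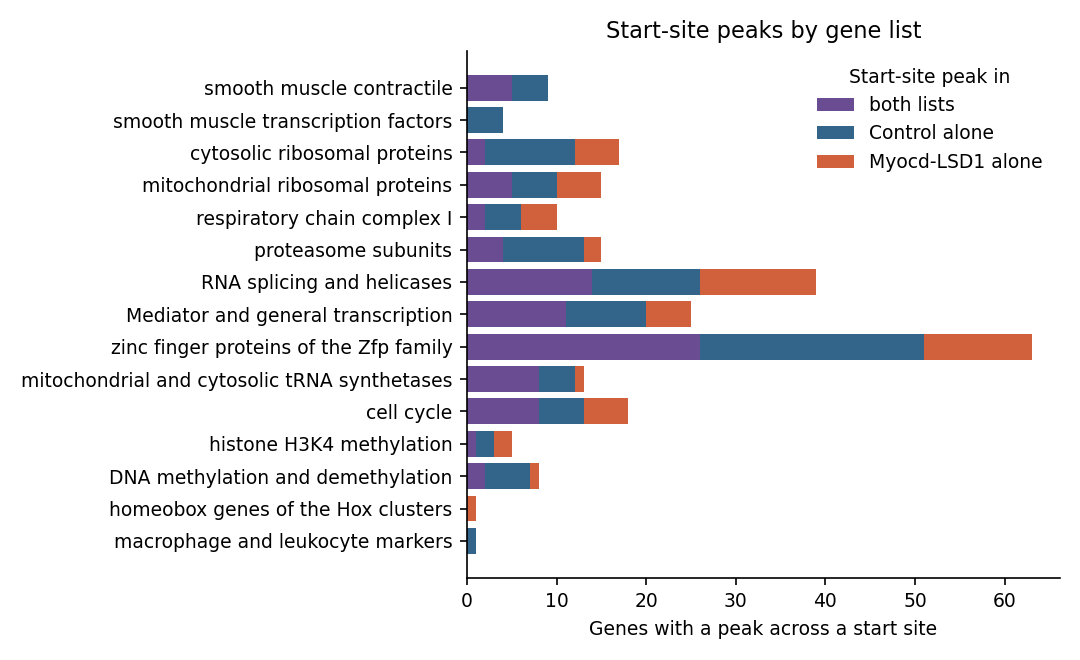
Number of genes with a start-site peak (horizontal axis) in each gene list (vertical axis), split into those with one in both lists, in Control alone and in Myocd-LSD1 alone. Zfp genes give the longest bar, and the SMC transcription factors have 4 genes in Control alone and none in Myocd-LSD1.

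By chromosome the share of Control start-site peaks that were met ran from 51.7% to 64.8% over the autosomes. On the X it was 9 of 34 (26.5%, 12.9 to 44.4), and 8 of 21 (38.1%, 18.1 to 61.6) for Myocd-LSD1, whose autosomes ran from 67.3% to 83.1%. The X held 1.14% of Control start-site peaks and 0.679% of all Control peaks on assembled chromosomes, and 1.05% and 1.04% of the Myocd-LSD1 ones. Coding transcripts took 93.6% of Control and 95.3% of Myocd-LSD1 start-site peaks, against 78.0% of all Control peaks. Control start-site peaks of noncoding transcripts were met in 45.2% of 188 (38.0 to 52.6) and those of coding ones in 58.5% of 2785 (56.6 to 60.3). In Myocd-LSD1 the shares were 76.9% of 91 (66.9 to 85.1) and 75.6% of 1911 (73.6 to 77.5), with overlapping intervals. A miRNA gene was assigned to 12 Control and 2 Myocd-LSD1 start-site peaks. The mitochondrial genes ND1, ND2, COX3 and CYTB had a start-site peak in each list, all met, with low folds of 1.08 to 2.35 in Control and 1.18 to 2.73 in Myocd-LSD1. In 28 Control and 8 Myocd-LSD1 genes separate peaks lay across 2 starts. More than 1 peak of any kind was assigned to 1306 of the Control start-site genes (44.3%) and 347 of the Myocd-LSD1 ones (17.4%). These counts include the genes with 2 start-site peaks, and the Control list holds 2.68 times as many peaks.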

How the data were processed

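CUT&Tag of HA-TET2 covered 3 samples, grouped by labelled cell line. Bowtie2, deepTools, MACS2 and ChIPseeker were used on build rn6, per the submitters' processing notes. Tool versions, tool settings and any pooling of Control reads are stated in no source used here. Input, IgG and untransduced samples were not used. The labels tie both Control samples to 1 list, and the peak names of a list cite 1 alignment.

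The deposited fold enrichment is a ratio from the authors' peak caller, whose denominator no source used here states. It describes and ranks peaks within its own list. Each peak also has a deposited −log10 p-value and −log10 q-value, with a lowest −log10 q-value of 1.32 in Control and 1.31 in Myocd-LSD1. The deposited score restates the −log10 q-value on a larger scale and was not used. Annotation, gene and distance are the authors'. The header line of each list holds the name of peak 1 with no values, so that peak was not analysed here. A date stands in place of the gene symbol in 3 Control and 5 Myocd-LSD1 start-site peaks, which are not named. Start columns count from 0 and are given here from 1.

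The members and gene lists were chosen with earlier results of these data known. All members were used, with no filter on low values. Fragments at a summit (k) were recovered for 99.9% of Control and 99.8% of Myocd-LSD1 start-site peaks from fold = (k + 1)/(λ + 1), with λ the local background, and from the p-value as a Poisson chance. Mitochondrial peaks were left out of that step. Amplified fragments are not independent molecules. Both steps were tested on simulated data, and overlaps against bedtools 2.31.1. No test between conditions was made.

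Genes were matched to RefSeq GRCr8 by transcript, then symbol, then synonym, and 3007 of 3666 start-site genes (82.0%) had a promoter. The start listed farthest 5′ was used, which may not be the start under the peak. Printed sequences are of the first genes by rank, and of Dnmt1 and Acta2 from the gene lists, with 1 listed start and an assigned transcript that spans the RefSeq gene to within 2%.

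Named genes, on assembled nuclear chromosomes and passing over provisional symbols, are the 10 of highest mean fold percentile in both lists, the 10 of highest fold unmet in each list, the 3 widest of each, up to 4 shared and 4 Control-only members of each of 19 gene lists, and every contractile or SMC transcription factor gene. Software was Python 3.11.15, pandas 2.3.3, numpy 2.4.6, scipy 1.17.1 and matplotlib 3.10.9.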

Additional observations from a re-analysis of the deposited data

How the results depend on the processing

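The share of Control start-site peaks met (57.7%) and of Myocd-LSD1 ones (75.7%) moved with what counts as an overlap. They were 40.9% and 56.6% with a reciprocal overlap of 50%, 47.5% and 67.8% with the summit inside a peak of the other list, 45% and 66.7% against start-site peaks alone, and 43.4% and 64.1% counted by gene. With both lists held to a −log10 q-value of at least 3, the Control share met was 51%, start-site peaks made up 13.3% of Control and 30.0% of Myocd-LSD1, and 38.2% of the listed genes with a Control start-site peak were shared (47.3% over all peaks). At a minimum of 5 these were 44.2%, 15.0%, 35.0% and 35.5%. With the Control list shortened to the length of the Myocd-LSD1 list they were 75.2% met in Control, 47.6% met in Myocd-LSD1, 15.3% of Control across a start and 62.5% of listed genes shared. The share of listed genes was 61.3% when any Myocd-LSD1 peak on the Control start-site peak counted. Weighted to the 4 fold groups of the other peaks, the shares met were 51.2% and 63.6%, and to their width groups 51.4% and 67.6%; the Myocd-LSD1 weightings were chosen after seeing the data. The cause of these moves was not tested, beyond the fewer peaks or narrower definition each uses. Under the same alternatives, where run, the Control peaks not across a start ranged from 10.9% to 32.1% met, each below the start-site share. The Myocd-LSD1 order reversed only at the stricter q-value of 5 (75.9% against 79.2%, with overlapping intervals). Median widths and summit positions moved by less than the spread between peaks, and assembled chromosomes alone left both shares met and both shares across a start as they were. No paired analysis was possible because each group has 1 list, and leaving out a Control replicate was not run for that reason. Few fragments per peak limit what an unmet peak can show.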
